A study of Mus musculus with 5 samples.

Results

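The mitosis genes described here are 44 genes of chromosome segregation and cell division, picked by symbol from a table of 24046 genes. All 44 were in the table, and all 44 were tested for a difference between Syncrip knockout (KO) and control (WT) hematopoietic stem cells (HSCs). They were grouped by role into 6 mitotic cyclins and entry kinases, 6 genes of the spindle checkpoint and anaphase, 4 subunits of the chromosomal passenger complex, 7 kinetochore and centromere genes, 8 spindle motors and microtubule-associated proteins, 6 genes of the central spindle and cytokinesis, and 7 genes of chromosome condensation and structure.

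A cell that enters mitosis switches on cyclin-dependent kinase 1 with its B-type cyclin, condenses its chromosomes with condensin and topoisomerase, and attaches them to a spindle through kinetochores. The spindle checkpoint holds anaphase back until every chromosome is attached, after which the anaphase-promoting complex destroys cyclin B and securin, and the central spindle sets the plane of cytokinesis. Most of these genes are transcribed late in the cell cycle, so their RNA is low in resting cells, and adult HSCs are known for being mostly quiescent.

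Bulk RNA sequencing had been carried out on HSCs from mice that had received whole bone marrow of Syncrip flox/flox donors. The WT group (WT 1, WT 2 and WT 3) was Mx1 Cre- and the KO group (KO 2 and KO 3) was Mx1 Cre+, where Mx1 is an interferon-inducible promoter that is not specific to HSCs. Recipients of both groups were CD45.1 congenic mice, both groups were given polyinosinic:polycytidylic acid (pIpC), and both were harvested 9 weeks after transplantation and 3 weeks after pIpC. Cells were sorted as CD45.2+, Lin-, Sca1+, cKit+, CD150+ and CD48-, and their RNA went into SMART-Seq v4 libraries, a kit for very small inputs that amplifies full-length cDNA. The study's methods speak of biological replicates in general, but the labels tie no library to an animal, so p-values measure the spread between these libraries, which may be technical. In bulk RNA, fewer dividing cells and less RNA of a gene in each cell cannot be told apart.

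The libraries held 12539599 reads (KO 3) to 22779536 reads (WT 3), with less depth in either KO library than in any WT library. No mitosis gene had fewer than 334 reads in any library. Counting error was not measured, because amplified reads cannot be taken as independent molecules. Syncrip, the targeted gene, kept 17.0% of its WT mean in KO 2 and 19.9% in KO 3, with a limma adjusted p of 0.0352 (log2 fold change -2.43, SE 0.22). It was the only gene of the 13661 tested to pass an adjusted p of 0.05 in limma. This call was lost without any 1 of the WT libraries (adjusted p = 0.164 to 0.209), with limma-voom (0.0826), with array weights (0.0594), with all genes tested (0.0503) and with the length and GC trend described further on removed (0.138). Genes of granulocyte precursors and neutrophils (Mpo, Ngp, Ltf, S100a9, S100a8, Camp and Elane) were among the 10 most abundant of each WT library. In KO 3, S100a9, S100a8 and Camp were not. Rn45s, the ribosomal RNA precursor, took 0.701%, 0.795% and 0.600% of reads in the WT libraries, 1.39% in KO 2 and 2.1% in KO 3, where it ranked first. It was thus highest in KO 3 and next highest in KO 2, where the median of the mitosis genes was lowest and next lowest, and its part in their result was not tested. The 6 markers of mature neutrophils summed to 3.89% to 4.71% of the reads in the WT libraries, 2.81% in KO 2 and 1.06% in KO 3, whereas the 8 markers of the HSC gate and of stem cells summed to 0.057% to 0.106% across the 5 libraries. Cd48, whose protein the gate should leave out, read 696, 601 and 768 in the WT libraries, 459 in KO 2 and 191 in KO 3. Slamf1, which encodes the CD150 of the gate, read 480, 233 and 195 in the WT libraries, 348 in KO 2 and 522 in KO 3. The cells are called HSCs here by their label alone.

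The promoters are shown first because a pair of short motifs is a known feature of late cell cycle genes. The cell cycle genes homology region (CHR, TTTGAA or TTCGAA) binds the repressive DREAM complex and, later in the cycle, the activating MYBL2 and FOXM1 complexes, and CCAAT boxes upstream of it bind NF-Y. RefSeq promoters of build GRCm38.p6, from 250 bases before to 50 bases after the start, were matched by symbol for 37 of the 44 genes. Not matched were Ccna2, Aurkb, Incenp, Spc24, Tpx2, Kif20a and Smc4. TTTGAA or TTCGAA on either strand was found in 30 of the 37 promoters, against 21.7% of the 27025 genes with a RefSeq promoter entry and 16.4% of the 10115 tested genes with one. TTTGAA accounted for 29 of these and TTCGAA for 3. CCAAT was found in 28 of the 37, against 41.1% of the genes with an entry, and 26 held both kinds of motif, against 8.61%. Within 50 bases of the start, TTTGAA or TTCGAA was found in 26 of the 37, against 6.12% of the genes with an entry.

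The lines below hold 200 bases of each promoter, from 170 before to 30 after the start, on the gene's strand, for the lowest gene by fold change with a CHR motif in 6 of the role groups. Capitals mark the CHR motifs and the CCAAT boxes, read on either strand. Cdc20, whose KO values were not below WT, was added after its values were seen, to show that the same motifs occur in a gene with the other direction.
Ncapg (chr5:45669755-45669954, plus strand): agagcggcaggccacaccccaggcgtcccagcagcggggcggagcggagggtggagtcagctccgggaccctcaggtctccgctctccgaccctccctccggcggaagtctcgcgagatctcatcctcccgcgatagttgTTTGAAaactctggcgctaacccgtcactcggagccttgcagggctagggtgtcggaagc
Bub1 (chr2:127831830-127832029, minus strand): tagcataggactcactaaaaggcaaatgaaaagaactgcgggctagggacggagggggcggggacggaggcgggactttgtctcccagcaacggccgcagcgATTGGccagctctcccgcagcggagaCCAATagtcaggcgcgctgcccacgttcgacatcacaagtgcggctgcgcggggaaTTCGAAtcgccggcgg
Hmmr (chr11:40733408-40733607, minus strand): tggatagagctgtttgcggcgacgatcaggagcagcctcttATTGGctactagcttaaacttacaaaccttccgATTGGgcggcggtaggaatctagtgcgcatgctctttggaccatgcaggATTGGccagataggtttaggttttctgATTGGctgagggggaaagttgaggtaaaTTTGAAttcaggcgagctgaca
Spc25 (chr2:69206184-69206383, minus strand): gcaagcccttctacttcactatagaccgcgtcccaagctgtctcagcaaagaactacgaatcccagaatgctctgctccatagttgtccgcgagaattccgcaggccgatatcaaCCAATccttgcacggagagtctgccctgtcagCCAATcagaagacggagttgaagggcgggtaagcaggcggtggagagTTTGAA
Prc1 (chr7:80294281-80294480, plus strand): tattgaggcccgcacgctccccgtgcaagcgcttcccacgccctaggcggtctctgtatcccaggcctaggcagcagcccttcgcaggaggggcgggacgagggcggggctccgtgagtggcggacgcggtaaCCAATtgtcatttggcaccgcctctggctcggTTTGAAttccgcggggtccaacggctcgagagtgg
Cdk1 (chr10:69352883-69353082, minus strand): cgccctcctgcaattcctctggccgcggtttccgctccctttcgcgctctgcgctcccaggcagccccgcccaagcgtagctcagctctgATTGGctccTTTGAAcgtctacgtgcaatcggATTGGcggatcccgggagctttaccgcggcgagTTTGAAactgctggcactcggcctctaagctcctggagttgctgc
Cdc20 (chr4:118437314-118437513, minus strand): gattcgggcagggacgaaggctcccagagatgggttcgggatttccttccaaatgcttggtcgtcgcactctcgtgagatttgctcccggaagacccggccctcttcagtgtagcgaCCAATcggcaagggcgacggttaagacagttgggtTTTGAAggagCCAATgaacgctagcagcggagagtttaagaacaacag

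In these windows Cdk1 and Cdc20 each held TTTGAA just upstream of the start (at -15 and -18), Prc1 at -5 and Ncapg at -30, while Hmmr, Bub1 and Spc25 held their motif downstream of it (at 9, 15 and 25). The motif did not sort the genes by fold change. The 30 genes with TTTGAA or TTCGAA had log2 fold changes from -1.48 (Ncapg) to 0.31 (Espl1), with a median of -0.55. The 7 without one (Birc5, Ccnb1, Cenpe, Mad2l1, Ncaph, Nuf2 and Nusap1) had values from -1.23 to -0.23, with a median of -0.97. A match is a description of these letters in this window, and says nothing of what binds there.

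Across the 44 mitosis genes, KO libraries tended to read lower than WT libraries, with a wide spread between genes and between the 2 KO libraries. The log2 fold change, KO minus WT on the log2(normalized count + 1) scale, was below 0 for 37 of 44 genes, against 48.9% of all genes tested, and above 0 for 7, against 51.1%. Its median was -0.60, against 0.02 for all genes tested, and it ran from -1.48 in Ncapg to 0.45 in Spc24. In 26 genes both KO values lay below all 3 WT values, which was so for 23.2% of all genes. In 2 genes, Plk1 and Spc24, both lay above, against 23.9% of all genes.

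No mitosis gene passed the test chosen as the main one. limma called 0 of 44 lower at an adjusted p under 0.05 (0.00732% of all genes) and 0 higher (0.0% of all genes). With the threshold at 0.1, it had 17 lower (6.47% of all genes) and 0 higher (4.76% of all genes). The lowest adjusted p was 0.0815, shared by Bub1, Kif11, Hmmr, Cenpe and Top2a. At an unadjusted p under 0.05, limma had 24 genes lower (14.5% of all genes) and 1 higher, Spc24 (13.3% of all genes). On the recovered reads, edgeR called 0 (0.00732% of all genes lower) with 24 lower at an unadjusted p under 0.05 (13.8% of all genes). DESeq2, the tool the study names, called 18 lower (9.46% of all genes) and 0 higher (9.27% of all genes), and 8 of the 18 were at least 2-fold lower (4.61% of all genes, beside 4.11% higher). The tools therefore placed nearly the same fold changes on opposite sides of the threshold, the DESeq2 median being -0.59.

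**Figure D1:**
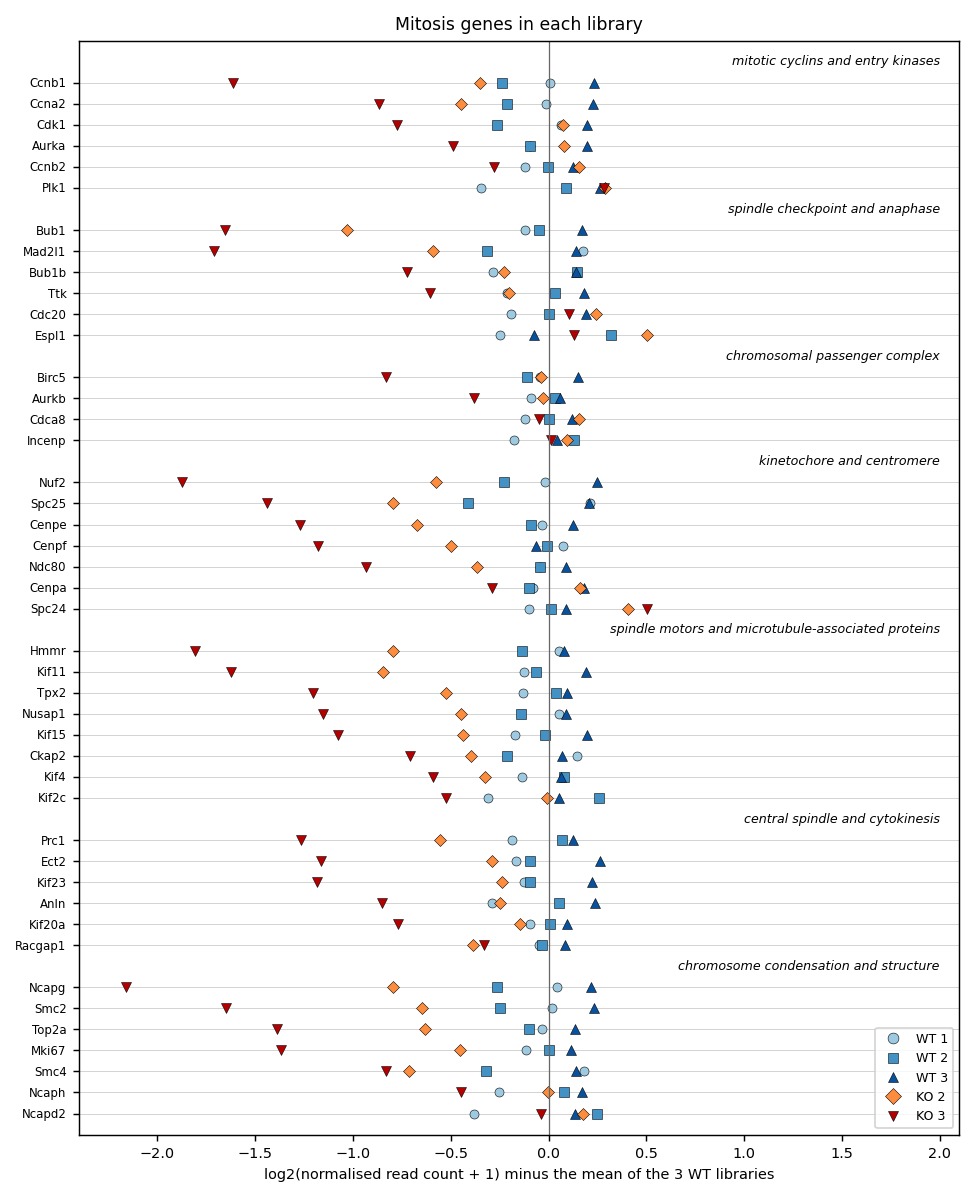
Each row is 1 mitosis gene, grouped by role, and each point is 1 library: log2(normalized read count + 1) minus the mean of the 3 WT libraries. KO 3 (downward triangles) lies below every WT point in 37 of 44 rows and KO 2 (diamonds) in 26, and Spc24 and Plk1 have both KO points to the right of the WT points.

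The 2 KO libraries were not alike in size of difference. Taken as log2 differences from the mean of the WT libraries, the 44 genes had a median of -0.34 in KO 2 and -0.84 in KO 3. The WT libraries, each taken against the mean of the other WT libraries, lay at -0.15, -0.06 and 0.21 (SD 0.186, n = 3). Their reference thus differs from that of the KO libraries. KO 3 read below KO 2 in 42 of 44 genes, against 50.2% of all genes. KO 3 was under the lowest WT value in 37 genes (38.3% of all genes) and KO 2 in 26 (30.9% of all genes). A 2-fold or larger reduction was seen in 19 genes in KO 3 (15.9% of all genes) and in 1 gene, Bub1, in KO 2 (5.78% of all genes). Summed, the 44 genes took 0.824%, 0.827% and 0.908% of the reads in the WT libraries, 0.737% in KO 2 and 0.529% in KO 3. Without KO 2, limma called 27 genes lower (14.4% of all genes) and 0 higher (12.2% of all genes). Without KO 3, it called 0 lower (0.00745% of all genes) and 0 higher (0.0745% of all genes), with 16 lower at an unadjusted p under 0.05 (8.65% of all genes), and the median was -0.34. With 1 KO library left, that library is assumed to vary like the WT libraries.

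The mitotic cyclins and entry kinases had a median log2 fold change of -0.28, with 5 of 6 below 0. Ccnb1, which encodes cyclin B1, the partner that takes CDK1 into mitosis, read 3755, 3163 and 4398 in WT 1, WT 2 and WT 3, 2934 in KO 2 and 1220 in KO 3. Both KO values were below the WT values, KO 2 narrowly so (log2 fold change -0.98, SE 0.34, limma adjusted p = 0.117). Ccnb2, the second B-type cyclin, read 4998, 5429 and 5916 in WT libraries, 6055 in KO 2 and 4483 in KO 3, so that the groups overlapped (-0.06, SE 0.19). Ccna2, the S and G2 phase cyclin, read 7454, 6507 and 8813 in WT libraries, 5528 in KO 2 and 4122 in KO 3 (-0.66, SE 0.21, limma adjusted p = 0.101), and was the 1 gene of the group called by DESeq2. Both B-type cyclins have annotated pseudogenes, and reads shared with them could not be told apart here.

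Cdk1 itself, the kinase of mitotic entry, read 3965, 3162 and 4346 in WT libraries, 3994 in KO 2 and 2217 in KO 3, so only KO 3 lay outside the WT range. Aurka, the centrosome kinase, had the same layout, with 2692 to 3297 in WT libraries, 3043 in KO 2 and 2052 in KO 3. Plk1, the polo kinase of entry and bipolar spindle assembly, read 3641, 4924 and 5556 in WT libraries, 5656 in KO 2 and 5645 in KO 3. Its KO values were just above the highest WT value, by less than the spread of the WT libraries (log2 fold change 0.29, SE 0.21, limma adjusted p = 0.392).

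Among the genes of the spindle checkpoint and anaphase, the kinase gene Bub1 and Mad2l1 were low in KO libraries, while Cdc20 and Espl1 were not (median -0.44, 4 of 6 below 0). Bub1 (chr2:127801122-127831865, GRCm38), the kinase that recruits checkpoint proteins to kinetochores, read 1600.1, 1682 and 1957 in WT libraries, 850.1 in KO 2 and 551 in KO 3. The KO mean of 701 ± 211 (SD, n = 2) was 40.1% of the WT mean of 1746 ± 187 (SD, n = 3), with a log2 fold change of -1.34 (SE 0.24, limma adjusted p = 0.0815). It was the 1 gene of the 44 that was at least 2-fold lower in both KO libraries, at 48.7% (KO 2) and 31.6% (KO 3) of the WT mean. Mad2l1, which encodes MAD2, the inhibitor of CDC20, read 2515, 1791 and 2451 in WT libraries, 1478 in KO 2 and 679 in KO 3 (-1.15, SE 0.32, limma adjusted p = 0.0891). DESeq2 called both genes.

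Bub1b, which encodes the checkpoint protein BUBR1, read 3392 to 4574 in WT libraries, 3529 in KO 2 and 2506 in KO 3, and Ttk, the kinase MPS1, read 877 to 1155 in WT libraries, 884 in KO 2 and 668 in KO 3. In both, KO 2 lay inside the WT range. Cdc20, the activator of the anaphase-promoting complex that MAD2 holds back, read 5342, 6126 and 6980 in WT libraries, 7223 in KO 2 and 6564 in KO 3 (0.17, SE 0.18). Espl1, which encodes separase, the protease that cuts cohesin at anaphase, read 1853, 2747 and 2091 in WT libraries, 3114 in KO 2 and 2404 in KO 3 (0.31, SE 0.22). Neither passed the test (limma adjusted p = 0.551 and 0.378), and in each gene 1 KO library lay inside the WT range.

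The chromosomal passenger complex corrects wrong attachments at the centromere, and its 4 subunit genes had the median nearest 0 of the role groups (-0.08, 2 of 4 below 0). Aurkb, its kinase, read 4053, 4408 and 4481 in WT libraries, 4231 in KO 2 and 3305 in KO 3. Birc5, which encodes survivin, read 4254, 4066 and 4870.0 in WT libraries, 4273 in KO 2 and 2462 in KO 3. Both had KO 2 inside the WT range and KO 3 below it. Incenp, the scaffold, read 5122 to 6331 in WT libraries, 6180.0 in KO 2 and 5833 in KO 3, and Cdca8, which encodes borealin, read 4346 to 5117, 5248 and 4567. The fold changes of these 2 genes were both 0.05, with limma adjusted p-values of 0.855 and 0.856.

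Kinetochore and centromere genes had 1 of the lowest medians (-0.84, 6 of 7 below 0), and the group also held the highest gene of all 44. The NDC80 complex, whose 4 subunits form a rod that binds microtubules, was split. Nuf2 read 1961, 1700.2 and 2364 in WT libraries, 1333 in KO 2 and 542 in KO 3 (-1.23, SE 0.35, limma adjusted p = 0.0899). Spc25 read 2130.4, 1381 and 2122 in WT libraries, 1061 in KO 2 and 677 in KO 3 (-1.12, SE 0.28, limma adjusted p = 0.0818). Ndc80 read 1129, 1127 and 1238 in WT libraries, 903 in KO 2 and 609 in KO 3 (-0.65, SE 0.23, limma adjusted p = 0.119). In these 3 genes both KO libraries were below every WT library. Spc24 read 2160, 2329 and 2458 in WT libraries, and 3063 in KO 2 and 3274 in KO 3, the opposite layout (0.45, SE 0.17, limma adjusted p = 0.129).

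Cenpe, a kinesin that carries chromosomes to the spindle equator, read 2132, 2052 and 2387 in WT libraries, 1368 in KO 2 and 904 in KO 3 (-0.97, SE 0.22, limma adjusted p = 0.0815). Cenpf, a large coiled-coil protein of the outer kinetochore, read 1966, 1861 and 1793 in WT libraries, 1323 in KO 2 and 825 in KO 3 (-0.84, SE 0.23). Cenpa, the histone H3 variant that marks centromeres, read 4726, 4654 and 5651 in WT libraries, 5584 in KO 2 and 4081 in KO 3, and its groups overlapped (-0.06, SE 0.20). DESeq2 called Cenpe, Cenpf, Nuf2 and Spc25 in this group.

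**Figure D2:**
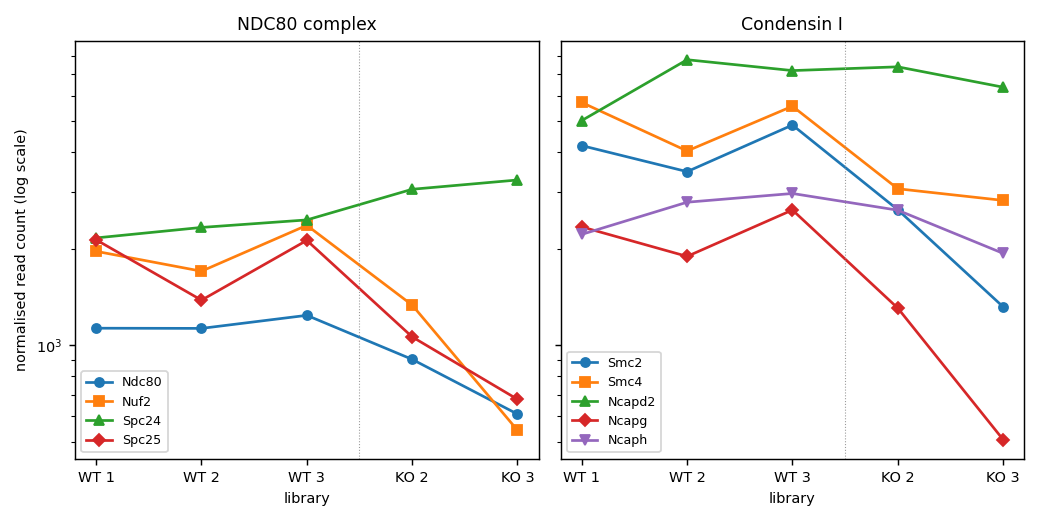
Normalized read counts on a log axis for the subunits of the NDC80 complex (left) and of condensin I (right), 1 point per library, joined only to follow a gene. Spc24 stands at 3063 in KO 2 and 3274 in KO 3 while its partners lie between 542 and 1333, and Ncapd2 stays within its WT range while Ncapg reads 507 in KO 3.

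All 8 spindle motors and microtubule-associated proteins had a fold change below 0 (median -0.78), against 48.9% of all genes. In 7 of them both KO libraries were below every WT library, against 23.2% of all genes. Hmmr, a spindle pole assembly factor, read 2476, 2171 and 2520.3 in WT libraries, 1372 in KO 2 and 680.4 in KO 3. The KO mean was 43.0% of the WT mean (-1.30, SE 0.29, limma adjusted p = 0.0815). Kif11 (chr19:37376403-37421859, GRCm38), the kinesin-5 that pushes spindle poles apart, read 4307, 4502 and 5372 in WT libraries, 2618 in KO 2 and 1525 in KO 3 (-1.24, SE 0.25, limma adjusted p = 0.0815). Tpx2, which activates aurora A on the spindle, read 3737, 4213 and 4377 in WT libraries, 2846 in KO 2 and 1780 in KO 3 (-0.86, SE 0.22). In all 3 genes KO 3 was the lowest library and KO 2 the next lowest.

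Kif15, a second motor for bipolar spindles, Nusap1, which bundles spindle microtubules, and Ckap2, a microtubule-associated protein of the spindle, had fold changes of -0.76, -0.80 and -0.55. Kif4, the chromokinesin, read 1584, 1839 and 1822 in WT libraries, 1393 in KO 2 and 1157 in KO 3 (-0.46, SE 0.19), with a pseudogene of similar sequence in the annotation. Kif2c, the depolymerase MCAK, was the exception in this group, with 1757 to 2600.2 in WT libraries, 2168 in KO 2 and 1513 in KO 3. DESeq2 called 5 of the 8 lower (Kif11, Kif15, Tpx2, Nusap1 and Hmmr), against 9.46% of all genes.

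The 6 genes of the central spindle and cytokinesis were all below 0 (median -0.63), against 48.9% of all genes. In 5 of them both KO libraries were below every WT library, against 23.2% of all genes. Prc1, the bundler of antiparallel microtubules at the midzone, read 3825, 4569 and 4754 in WT libraries, 2965 in KO 2 and 1816 in KO 3 (-0.91, SE 0.23, limma adjusted p = 0.0820), and DESeq2 called it alone in this group. In the centralspindlin pair, Kif23 was lower than Racgap1 only in KO 3 (-1.19 and -0.33 from the WT mean on the log2 scale). The order was reversed in KO 2 (-0.24 and -0.39), and the difference was not tested. Kif23, the motor of the pair, read 2074, 2121 and 2639 in WT libraries, 1916 in KO 2 and 995 in KO 3 (-0.71, SE 0.28), and Racgap1, its GTPase-activating partner, read 4665, 4710.0 and 5099 in WT libraries, 3686 in KO 2 and 3839 in KO 3 (-0.36, SE 0.16). Racgap1 was 1 of only 2 mitosis genes, with Spc24, whose KO 3 value was not below its KO 2 value.

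Ect2, the exchange factor that activates RhoA for furrowing, read 1672, 1756 and 2256 in WT libraries, 1536 in KO 2 and 837 in KO 3 (-0.73, SE 0.28). Anln, which encodes anillin, the scaffold of the contractile ring, read 1759 to 2535 in WT libraries, 1812 in KO 2 and 1192 in KO 3. Kif20a, the kinesin that brings the passenger complex to the midzone, read 4163 to 4746 in WT libraries, 4025 in KO 2 and 2611 in KO 3. In the KO 2 library these values lay close to or inside the WT range, and in KO 3 they lay below it.

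Chromosome condensation and structure had the lowest median of the role groups (-0.91, 6 of 7 below 0). Ncapg (chr5:45669919-45700546, GRCm38), a regulatory subunit of condensin I, had the lowest fold change of the 44. It read 2338, 1891 and 2639 in WT libraries, 1304 in KO 2 and 507 in KO 3. The KO mean of 906 ± 564 (SD, n = 2) was 39.6% of the WT mean of 2289 ± 376 (SD, n = 3), with a log2 fold change of -1.48 (SE 0.36, limma adjusted p = 0.0818). The 2 KO libraries were far apart, at 57.0% and 22.2% of the WT mean. Smc2, the condensin ATPase, read 4192, 3477 and 4860 in WT libraries, 2645 in KO 2 and 1317 in KO 3 (-1.15, SE 0.29), and its partner Smc4 read 5714, 4033 and 5562 in WT libraries, 3075 in KO 2 and 2828 in KO 3 (-0.77, SE 0.20). Ncaph, the kleisin, read 2215 to 2972 in WT libraries, 2636 in KO 2 and 1933 in KO 3. Ncapd2 read 5019, 7769 and 7186 in WT libraries, 7383 in KO 2 and 6379 in KO 3, so that both KO values lay inside the WT range (0.07, SE 0.22).

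Top2a, the topoisomerase that untangles sister chromatids, was the most abundant of the 44 by normalized count. It read 9271, 8872 and 10448 in WT libraries, 6130 in KO 2 and 3624 in KO 3 (-1.01, SE 0.23, limma adjusted p = 0.0815). Mki67, the proliferation marker Ki-67 that coats mitotic chromosomes, read 6931, 7531 and 8142 in WT libraries, 5481 in KO 2 and 2911 in KO 3 (-0.91, SE 0.26, limma adjusted p = 0.0896). KO 3 held 38.0% of the WT mean of Top2a and 38.6% of that of Mki67. DESeq2 called Top2a, Mki67, Ncapg, Smc2 and Smc4. Per kilobase of the longest transcript, the WT level was highest for Ccnb2 (3558), Cdc20 (3430), Ccna2 (2560) and Aurkb (2212) and lowest for Cenpf (168), Cenpe (277) and Mad2l1 (298), and none of the 4 highest was among the 9 genes at a fold change of -1 or lower. These levels depend on the transcript length used, such as 7557 bases for Mad2l1, and which transcript was expressed was not measured.

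Subunits of 1 complex, and paired genes of 1 role such as the B-type cyclins, thus differed in the size of their fold change, and their ratio was measured within each library, where the depth of the library cancels. These pairs were chosen after their values were seen, with the gene of lower fold change first, so the choice set the direction of every difference. How often other gene pairs would show the same layout was not measured. The log2 ratio of Nuf2 to Spc24 was -0.14, -0.45 and -0.06 in WT libraries, -1.20 in KO 2 and -2.59 in KO 3. That of Ncapg to Ncapd2 was -1.10, -2.04 and -1.44 in WT libraries, -2.50 in KO 2 and -3.65 in KO 3. That of Ccnb1 to Ccnb2 was -0.41, -0.78 and -0.43 in WT libraries, -1.05 in KO 2 and -1.88 in KO 3. In all 3 pairs both KO ratios were below every WT ratio, and the same was so for Spc25 and Ndc80 to Spc24, for Smc2, Smc4 and Ncaph to Ncapd2, and for Bub1 to Bub1b. KO minus WT, the ratio differed by -1.68 for Nuf2 to Spc24, -1.57 for Spc25 to Spc24, -1.55 for Ncapg to Ncapd2 and -0.92 for Ccnb1 to Ccnb2. The lower gene of each pair also had the lower GC content, such as 41.7% for Nuf2 against 52.9% for Spc24, and 34.8% for Ncapg against 54.0% for Ncapd2.

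GC content ordered the mitosis genes closely. The fold change of the 44 genes and the GC content of their longest GENCODE transcript had a Pearson r of 0.879 and a Spearman rho of 0.861, as a description across genes that share the same 5 libraries and 1 normalization. Over the 13015 tested genes with a GC value, r was 0.534. In the 11 genes with the lowest GC content (34.8% to 42.4%) the median fold change was -1.15, in the next 11 it was -0.84, then -0.43, and in the 11 with the highest (49.3% to 56.1%) it was 0.05. All tested genes in the same GC ranges had medians of -0.71, -0.40, -0.18 and 0.20, so the mitosis genes were lower than genes of like GC content in each range. The relation was present in each KO library against the WT mean (r = 0.855 in KO 2 and 0.856 in KO 3). It was present with smaller slopes among the WT libraries, each against the other 2 (r = -0.611 for WT 1, 0.680 for WT 2 and -0.282 for WT 3). Transcript length followed less (r = -0.407).

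A linear trend on GC content and log2 transcript length was therefore removed from each library, and the comparison was made again. The median fold change of the 44 genes was then -0.30, against -0.01 for all genes, and 39 of 44 were below 0 (51.3% of all genes). limma called 0 (0.0% of all genes), with 13 lower at an unadjusted p under 0.05 (9.19% of all genes), and in 16 both KO values lay below all WT values (18.5% of all genes). In 2, Cdca8 and Spc24, both lay above (17.2% of all genes). By library, the median was -0.07 in KO 2 and -0.57 in KO 3. The WT libraries, each against the mean of the other WT libraries, ran from -0.16 to 0.17, with KO 2 inside this range and KO 3 below it. Tpx2 (-0.73, SE 0.20), Hmmr (-0.72, SE 0.20), Mki67 (-0.71, SE 0.25), Bub1 (-0.71, SE 0.18) and Kif11 (-0.70, SE 0.19) were then lowest, and Ncapg moved from -1.48 to -0.40 (SE 0.21). Syncrip itself, with 37.0% GC, moved from -2.43 to -1.53. The ratio of Nuf2 to Spc24 still differed by -0.90 and that of Ccnb1 to Ccnb2 by -0.57, with both KO ratios below the WT ratios, as did those of Spc25 (-0.83) and Ndc80 (-0.38) to Spc24. Those of Ncapg (-0.15) and Smc2 (-0.18) to Ncapd2 and of Bub1 to Bub1b (-0.19) then overlapped between groups. That of Smc4 to Ncapd2 turned to 0.16 with overlap, and that of Ncaph to Ncapd2 to 0.14, with both KO ratios above the WT ratios. The part of GC content in the differences beyond this was not tested.

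**Figure D3:**
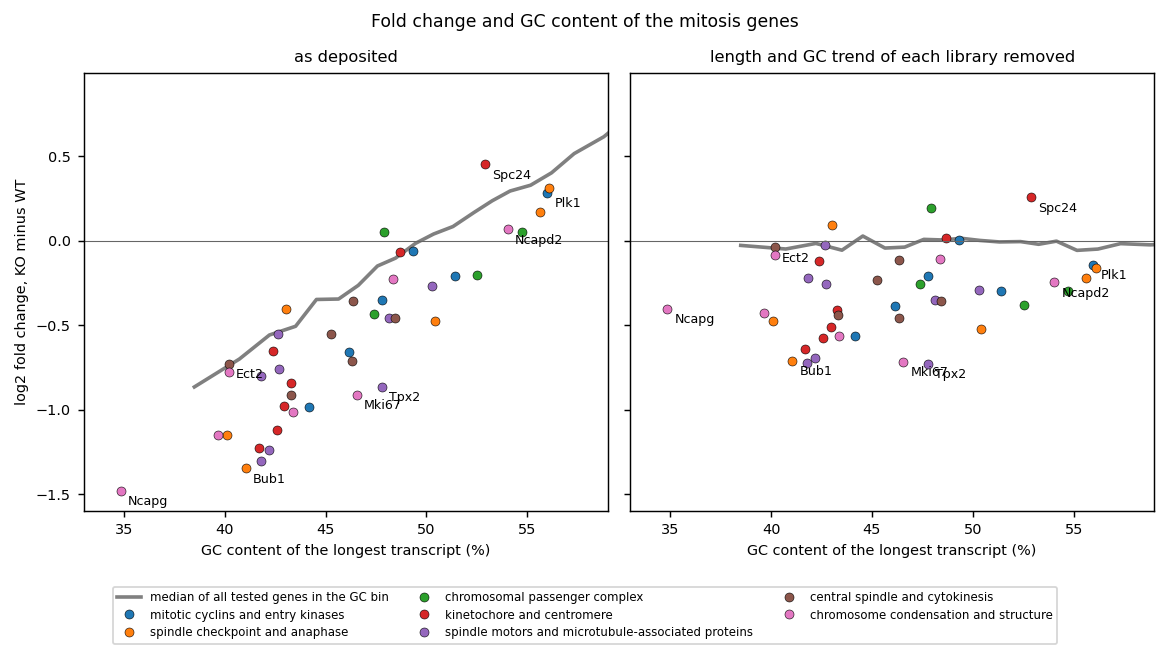
Log2 fold change (KO minus WT) of each mitosis gene against the GC content of its longest transcript, colored by role, before (left) and after (right) a length and GC trend was removed from each library. The grey line is the median of all tested genes by GC bin: most mitosis genes lie below it in both panels, and after removal their median is -0.30.

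Several lists of markers of other cells also differed between the libraries, and Cd48 read lowest in KO 3 and next lowest in KO 2 (fold change -1.20 on the log2 scale, with limma adjusted p = 0.0960). The 4 genes of the CD48 and multipotent progenitor list, Cd48 included, summed to 0.019% to 0.037% of reads in WT libraries, 0.020% in KO 2 and 0.026% in KO 3 (3 of 4 below 0). The 6 mature neutrophil markers were all below 0 (median -1.40), and their sum, like that of the mitosis genes, was lowest in KO 3 and next lowest in KO 2. The 6 granulocyte-monocyte progenitor markers summed to 1.70% to 2.58% of reads in WT libraries, 2.39% in KO 2 and 1.47% in KO 3. The 8 erythroid markers summed to 0.347% to 0.447% in WT libraries, 0.306% in KO 2 and 0.196% in KO 3, with 4 of the 8 below 0 and 4 above. The 6 megakaryocyte markers summed to 0.029% to 0.051% in WT libraries, 0.060% in KO 2 and 0.138% in KO 3. On the log2 scale, the 8 HSC markers had medians of 1.13 (WT 1), 0.07 (WT 2) and -0.97 (WT 3), each against the mean of the other WT libraries. Against the mean of all WT libraries, the medians were -0.02 (KO 2) and 1.04 (KO 3). Adipocyte markers took 0.138% of KO 2 and at most 0.00112% of the other libraries, and stroma markers at most 0.0112% of any library. The part of these markers in the mitosis gene result was not tested.

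**Figure D4:**
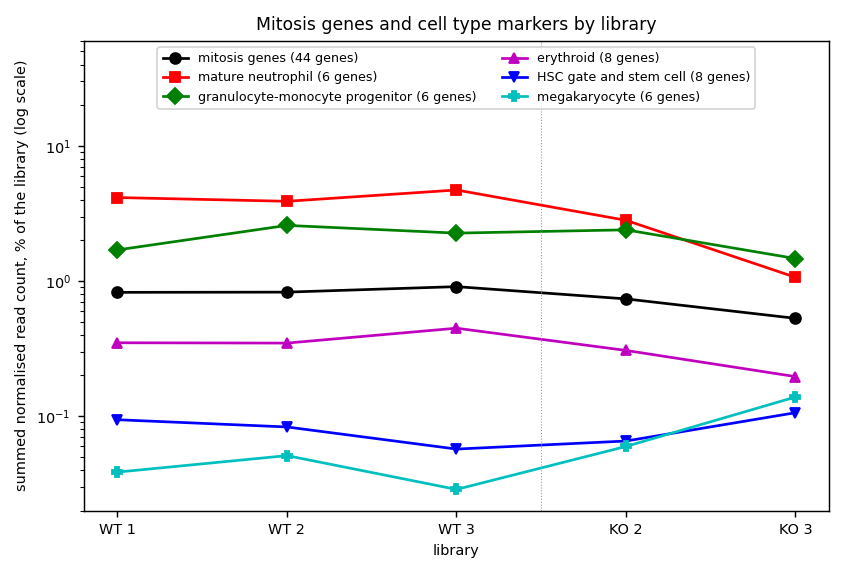
Summed normalized read counts of the mitosis genes and of 5 marker lists as a percentage of each library, on a log axis. Mitosis genes go from 0.824% to 0.908% in WT libraries to 0.529% in KO 3, and mature neutrophil markers from 3.89% to 4.71% down to 1.06%.

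Other cell cycle genes were read from 9 lists, none of which had a gene called by limma. DESeq2 called 35 of the 196 genes it tested in these lists lower (17.9%, against 9.46% of all genes) and 7 higher (3.57%, against 9.27%). Cohesin and its regulators, which hold sister chromatids together, had values mostly below 0 (median -0.79, 15 of 16 below 0, DESeq2 11 lower and 0 higher). Stag2, a cohesin subunit, read 2810, 2261 and 2698 in WT libraries, 1355 in KO 2 and 557 in KO 3 (-1.57, SE 0.34, limma adjusted p = 0.0815). The list also had a low median GC content (42.4%), and its median was -0.31 with the length and GC trend removed. The other kinetochore genes had a median of -0.50 (27 of 32 below 0, DESeq2 8 lower and 0 higher), with Knl1, the kinetochore scaffold, lowest at -1.38 and Cenpm highest at 0.62. Condensin II had Ncapg2 at -1.36, Ncapd3 at -0.65 and Ncaph2 at 0.27.

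The centrosome and spindle assembly list had a median of -0.19 (19 of 29 below 0, DESeq2 5 lower and 0 higher), from Kif20b at -1.43 to Pcnt at 0.41. The anaphase-promoting complex, which CDC20 activates, had a median of -0.11 (10 of 19 below 0, DESeq2 1 lower and 3 higher), from Anapc10 at -1.09 to Anapc13 at 0.76. The G2/M entry regulators had a median of -0.11 (7 of 13 below 0, DESeq2 0 in either direction), with the kinase Mastl at -1.09 and Wee1, which restrains CDK1, at 0.59. DNA replication genes had a median of -0.23 (30 of 49 below 0, DESeq2 4 lower and 3 higher) and were at 0.03 in KO 2 and -0.34 in KO 3. Over all genes, DESeq2 called 9.46% lower and 9.27% higher, and neither DESeq2 share of the replication list was above these. Below 0 were 48.9% of all genes, beside 30 of 49 in this list. Whether the mitosis genes differed from these lists was not tested.

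Neither activator of late cell cycle transcription passed the test. Foxm1, which encodes a forkhead activator, read 1642, 2668 and 2423 in WT libraries, 2566 in KO 2 and 1766 in KO 3 (-0.05, SE 0.26, limma adjusted p = 0.921). Mybl2, its partner, read 2097, 3023 and 2861 in WT libraries, 3306 in KO 2 and 3048 in KO 3 (0.27, SE 0.20, limma adjusted p = 0.406). Of the 23 cell cycle transcription regulators, 15 were below 0 (median -0.16). DESeq2 called 4 lower and 0 higher, against 9.46% and 9.27% of all genes. At the low end were Rb1 at -1.55 and Rbl1 at -0.99, both members of the retinoblastoma family. At the high end were Lin37 at 0.54 and the activator E2f1 at 0.44.

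Of 15 listed G1 cyclins, kinases and inhibitors, 13 were tested, and their median was 0.33 with 4 below 0. DESeq2 called 1 lower and 1 higher, against 9.46% and 9.27% of all genes. Ccnd1, cyclin D1, read 127, 115 and 132 in WT libraries, 282 in KO 2 and 530.0 in KO 3 (1.63, SE 0.36, limma adjusted p = 0.0815). Cdkn1a, which encodes the CDK inhibitor p21, read 67.4, 155 and 68.6 in WT libraries, 388 in KO 2 and 158 in KO 3 (1.46, SE 0.53, limma adjusted p = 0.128). Ccne2, cyclin E2, was the lowest gene of the list at -1.96 (SE 0.37, limma adjusted p = 0.0815), with 35.0% GC. With the length and GC trend removed, the median of the list was 0.12.

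**Figure D5:**
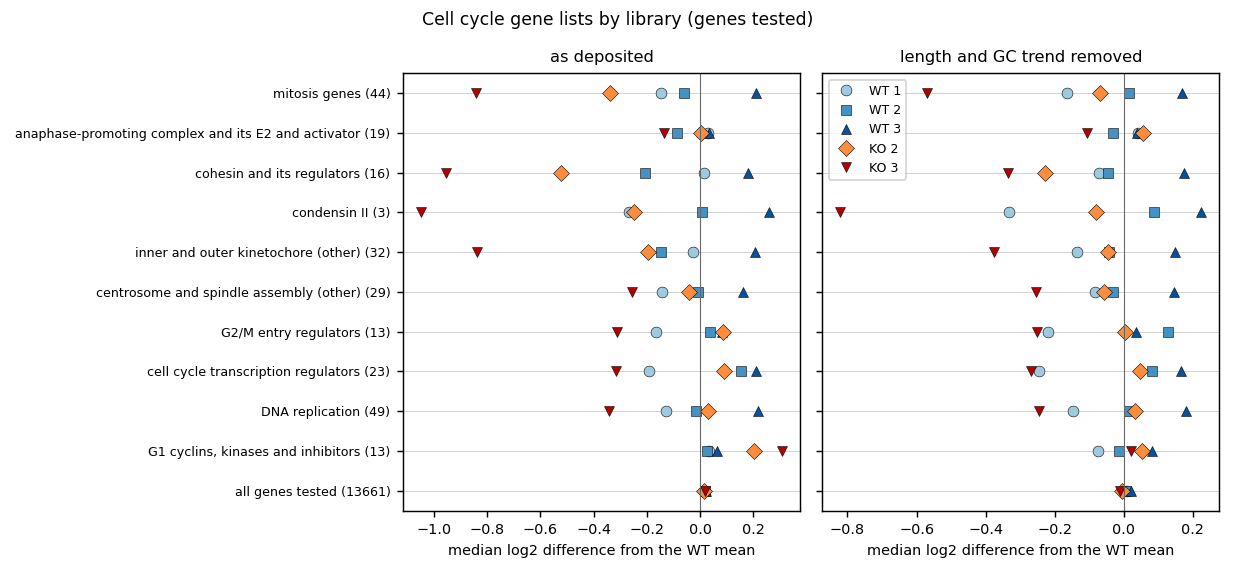
Median log2 difference from the WT mean, by library, for the mitosis genes, 9 other cell cycle lists and all genes tested, before (left) and after (right) a length and GC trend was removed (number of genes tested in brackets). Each WT library is set against the mean of the other WT libraries. KO 3 is the lowest library in both panels for the mitosis genes and for every other list but that of G1 cyclins, kinases and inhibitors, and KO 2 for the mitosis genes moves from -0.34 to -0.07.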

How the data were processed

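RNA sequencing of sorted HSCs gave 5 libraries (3 WT, 2 KO), grouped by the genotype in the labels. The submitters' processing notes name STAR, featureCounts, DESeq2 and the mouse build mm10; the annotation and the use of strand are not given in the sources used here. The authors deposited 1 table of normalized signal, made by scaling each library's read counts by its own size factor. Dividing by the step between values gave whole reads for 100% of the values (within 0.01 reads). A second deposited table held the authors' comparison (log2 fold changes with raw and adjusted p-values) and was not used.

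log2(value + 1) was compared with limma (version 3.58.1, R 4.3.3; eBayes with a mean-variance trend) over 13661 genes, those that reached 10 in 2 or more libraries, with Benjamini-Hochberg adjustment over all of them and calls at an adjusted p under 0.05. Fold changes on this scale understate those of low genes. The recovered reads were also tested with DESeq2 (version 1.42.0) and with the quasi-likelihood test of edgeR (version 4.0.16). The count tests called 2 genes in all with edgeR, and 1151 lower and 1128 higher with DESeq2, which left 12170 genes after its own filter. Transcript length and GC content came from the longest GENCODE M21 transcript, matched by symbol for 13015 of the 13661 genes and all 44 mitosis genes.

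The members and gene lists were chosen with earlier results of these data known. All 44 members were named, with Syncrip, Foxm1, Mybl2, the markers, and the 2 lowest and 2 highest genes of each cell cycle list by fold change, of which the text gives a selection. Promoters were printed for the lowest gene with a CHR motif in each role group, at most 6. Alternatives were other pseudocounts, filters, scalings, weights, tools, a replicate block, a length and GC correction and the removal of each library. Without molecular identifiers reads cannot be taken as independent molecules, so the depth of a library does not give its counting error.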

Additional observations from a re-analysis of the deposited data

How the results depend on the processing

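Of the 44 mitosis genes, 32 were below 0 and 1 (Spc24) above 0 in all 18 alternatives, and 11 changed sign in at least 1. Pseudocounts, the filter, TMM and upper-quartile scaling, array weights, voom and edgeR turned no member's direction and called 0 members. DESeq2 called 18 members and, of 196 genes in the other cell cycle lists, 42 (17.9% lower and 3.57% higher, against 9.46% and 9.27% of all genes). A threshold of 0.1 on the adjusted p gave 17 members and 36 of 197 list genes (16.2% and 2.03%, against 6.47% and 4.76%). Syncrip lost its call when all genes in the table were tested (-2.43, adjusted p = 0.0503), with array weights (-2.42, 0.0594) and with voom (-2.46, 0.0826), and the cause was not tested; over all alternatives its adjusted p ran from 5.54e-20 to 0.209. With the length and GC trend removed, Syncrip was at -1.53 and not called (adjusted p = 0.138), the members' median at -0.30 and 16 members had both KO values below all WT values (18.5% of all genes) and 2 above (17.2%); with the replicate block added, -1.49 (not called, adjusted p = 0.173), -0.39 and 16.

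The members that turned lay between -0.40 (Ttk) and 0.31 (Espl1) in the main test, but others in this range, such as Aurkb (-0.20), did not turn. With quantile scaling, Incenp was at -0.030, Cdca8 at -0.041 and Ncapd2 at -0.017. With the trend removed, Ccnb2 was at 0.0061, Plk1 -0.14, Ttk 0.095, Cdc20 -0.22, Espl1 -0.16, Incenp -0.30, Cenpa 0.015 and Ncapd2 -0.25, and with the replicate block added Plk1 was at -0.29, Cdc20 -0.30, Espl1 -0.22, Incenp -0.35 and Ncapd2 -0.39.

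WT and KO libraries share the replicate numbers 2 and 3, but the labels give the numbers no meaning, and deviations from the group means in libraries with the same number had correlations of -0.06 and -0.18. The replicate block uses only these 4 libraries' pairing: the median was -0.67, 0 members were called and 20 were lower at an unadjusted p under 0.05 (7.92% of all genes), and Incenp (-0.033), Cdca8 (-0.0065) and Ncapd2 (-0.12) turned.

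Leaving out 1 library in turn gave between 0 and 27 called members (27 without KO 2, 0 otherwise), a median between -0.84 (without KO 2) and -0.34 (without KO 3) and between 0 and 77 called genes in the other lists (77 of 196 without KO 2, 32.1% lower and 7.14% higher against 14.4% and 12.2% of all genes; 0 otherwise). Syncrip ranged from -2.55 to -2.32 and lost its call without any 1 of the WT libraries (adjusted p = 0.164 to 0.209). The ranges of the members that turned were -0.28 to 0.16 for Ccnb2, -0.77 to 0.075 for Cdk1, -0.49 to 0.079 for Aurka, -0.033 to 0.12 for Incenp, -0.047 to 0.15 for Cdca8, -0.29 to 0.16 for Cenpa and -0.12 to 0.19 for Ncapd2. Cdk1 and Aurka were above 0 only without KO 3.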
